A study of Mus musculus with 4 samples.

Results

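The genes described here are 31 genes that epithelia of all kinds share: regulators of the epithelial state, tight junction and polarity proteins, membrane serine proteases with their inhibitors, and proteins of polarised trafficking. They were listed by name as a measure of how much epithelium an RNA sample holds, and keratins, claudins, cadherins and desmosome genes were left out of the list by design. All 31 were found among the 29924 gene names on the array, each represented by its brightest probe, and all 31 were well above background in all 8 RNAs. They are set here against 21456 genes that could be tested.

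Each RNA came from ureters of NMRI mouse embryos at stage E15.5, counted in embryonic days. The control genotype is given as Trp63(dN-flox/?), with no cre listed, and the mutant genotype, ΔNp63-cKO or cKO below, as Pax2-cre/+; Trp63(dN-flox/dN-flox). Every embryo thus carried at least 1 floxed ΔN allele of Trp63, the gene of the transcription factor p63, and Pax2-cre was in every cKO RNA and in no control RNA, so an effect of the cre transgene and of the loss of ΔNp63 cannot be told apart. Each of 4 Agilent arrays was hybridised with a cKO RNA and a sex-matched control RNA, female on replicates 1 and 2 and male on replicates 3 and 4, and the cKO RNA carried the red dye on replicates 1 and 3 and the green dye on replicates 2 and 4. The labels do not say whether an RNA came from 1 embryo or from a pool, so the p-values below measure the spread between these 4 arrays. Pax2-cre is active in the nephric duct and the epithelia derived from it, the ureteric epithelium among them.

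An epithelial cell has an apical and a basal side. The boundary between them is set by polarity complexes that act against each other: the Crumbs and Par complexes mark the apical domain, and the Scribble, Dlg and Lgl proteins mark the basolateral domain. At that boundary the tight junction seals neighbouring cells, with occludin, tricellulin and JAM-A in the membrane and the ZO proteins and cingulin as the scaffold that ties them to actin. In the ureter the epithelium with these structures is the urothelium. In its mature form it is a layered lining of basal, intermediate and superficial cells, in which p63 marks the basal and intermediate layers. Endothelial genes were measured in these RNAs too, and the arrays do not say which cells a junction gene's RNA came from. The ureteric wall around it is mesenchyme and smooth muscle.

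Transcriptional repressors of the ZEB and SNAI families switch off epithelial genes by binding the E-box CAGGTG near their starts, which reads CACCTG on the opposite strand, and OVOL2 and the Grainyhead factors act in the opposite sense. Sequence around the start was held for 23 of the 31 genes (29 RefSeq windows of build GRCm38.p6, each from 250 bases before to 50 after a start). At least 1 CAGGTG on either strand was present in 15 of these 23 genes (65.2%), against 22.3% of 13035 tested genes with a window and 23.6% of 4790 genes with a window of like GC content. Counted by window, 21 of 29 held it (72.4%), against 20.2% of all 32851 windows, and 12 of the 29 held more than 1, against 2.88%. The listed genes' windows had a median GC content of 63.0%, and those of all genes 52.7%. Windows of 1 gene can overlap and share a match. The full stretches before the start are given for Epcam and Pard6b, which hold the E-box, and for Cgn, which does not, because Pard6b and Cgn had the largest mean ratios of the 31. The E-boxes are in capitals, and every sequence reads 5′ to 3′ on the gene's own strand.
Epcam, chr17:87635729-87635978, plus strand: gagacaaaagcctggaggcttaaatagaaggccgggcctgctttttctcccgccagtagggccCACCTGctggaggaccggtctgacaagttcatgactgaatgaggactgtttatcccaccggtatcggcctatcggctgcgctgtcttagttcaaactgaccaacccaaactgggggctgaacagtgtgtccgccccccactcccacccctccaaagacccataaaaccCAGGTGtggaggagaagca
Pard6b, chr2:168080754-168081003, plus strand: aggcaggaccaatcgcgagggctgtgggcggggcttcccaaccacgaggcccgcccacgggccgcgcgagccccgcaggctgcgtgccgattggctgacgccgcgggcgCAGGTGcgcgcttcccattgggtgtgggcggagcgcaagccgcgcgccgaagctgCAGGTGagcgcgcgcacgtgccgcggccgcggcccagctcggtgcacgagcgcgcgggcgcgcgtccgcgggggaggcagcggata
Cgn, chr3:94786483-94786732, minus strand: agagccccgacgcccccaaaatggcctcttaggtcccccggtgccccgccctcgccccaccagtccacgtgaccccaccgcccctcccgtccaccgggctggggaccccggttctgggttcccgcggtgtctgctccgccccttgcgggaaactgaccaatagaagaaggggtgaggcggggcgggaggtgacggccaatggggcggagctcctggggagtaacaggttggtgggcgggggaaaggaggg

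Crb3, Ap1m2 and Lsr had the most E-boxes, 4 distinct sites each, and Spint2 had 3. A stretch of 30 bases is given for each, and for Rab25, whose pair of sites lies within 30 bases, as does a pair of Ap1m2.
Crb3, chr17:57062126-57062155, plus strand: gggttcccgttaCAGGTGctctggcggcgc
Ap1m2, chr9:21312337-21312366, minus strand: ttaagacgcgctCACCTGgcggctCACCTG
Rab25, chr3:88548326-88548355, minus strand: catcgctccaccCACCTGtgcccCAGGTGc
Lsr, chr7:30973603-30973632, minus strand: tgactagagcaaCAGGTGgctgcacaggtc
Spint2, chr7:29282015-29282044, minus strand: aggccgcagagcCAGGTGcggggccctccg
Counted by window, there were 42 matches, and a site shared by overlapping windows was counted in each of them. Of these 42, 34 lay before the start of their window's transcript and 28 within 100 bases on either side of it. The other motifs searched on both strands were CAGCTG, an E-box of myogenic type, in 8.70% of the listed genes against 18.7% of tested genes, and CACGTG, an E-box of MYC type, in 21.7% against 10.6%. The Grainyhead motif AACCNGTT was present in 8.70% against 2.29%, and the SP and KLF box GGGCGG in 69.6% against 61.0% (69.5% of genes with like GC content). The spaced pair of p53 family half-site cores was found in 0 of the 23 genes and in 0.422% of tested genes. None of these motifs overlaps CAGGTG by sharing its 6 letters, and a match describes the letters, not binding.

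**Figure D1:**
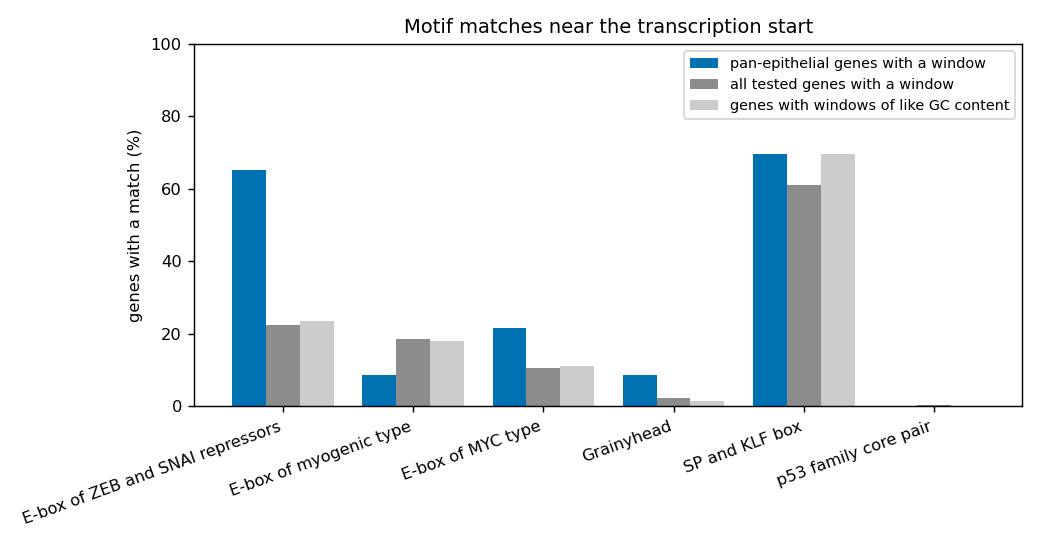
Share of genes (%, y axis) with at least 1 match to each of 6 motifs (x axis) between 250 bases before and 50 bases after the start. Blue bars are the 23 listed genes with a window, dark grey bars 13035 tested genes and light grey bars 4790 genes with windows of like GC content; the bars have no error because each is a count. The ZEB and SNAI E-box stands at 65.2% in the listed genes and at 22.3% in tested genes, while the SP and KLF box is at like heights in the listed genes and in genes of like GC content.

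The cKO arrays were first compared for Trp63 itself. Its log2 ratio of cKO over control was -1.39, -1.18, -1.30 and -1.62 on replicates 1 to 4, and Trp63 fell by 1.37 on the log2 scale (SD 0.18, n = 4, limma adjusted p = 0.00326); with all its kept probes averaged the value was -0.87 (adjusted p = 0.0180). Across all genes tested, 257 were called changed at an adjusted p under 0.05, which is 1.20% of 21456: 150 were lower in cKO (0.699%) and 107 higher (0.499%). The green channel had median signals of 382 to 416 and the red channel of 519 to 617. Of 8 genes that define the ureter and its lining, all were above background and 1, Upk2, was called. No slide or scan date entered the fits, so a batch by either was not tested.

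None of the 31 epithelial genes was called in either direction. Their mean log2 ratios ran from -0.29 (St14) to 0.52 (Pard6b), with a median of 0.01 against -0.00 over all genes tested; 15 were below 0 and 16 above. In limma's test without adjustment, 2 were lower at p under 0.05 (St14 and Wfdc2) and 6 higher (Pard6b, Cgn, Llgl2, Tjp3, Tc2n and Tmprss2), while 4.32% of all genes were lower and 3.72% higher at that level. The 8 genes are 25.8% of the list, against 8.04% of all genes tested (genes on the same arrays are not independent) and 6.26% of the 4790 genes whose level lay between the lower and upper quartile of the listed genes' levels. The same 8 genes had 1 sign on all 4 arrays, against 15.3% of all genes and 13.3% of genes of like level: 2 were negative on every array (7.65% of all genes) and 6 positive on every array (7.69%). The limma 95% intervals of 29 genes lay within 1.5-fold of no difference in either direction, and all 31 lay within 2-fold. The intervals of Pard6b and Cgn reached past 1.5-fold. No dye effect was called in the list (0 of 31 in limma, 0 also at an unadjusted p under 0.05, and 0 of all genes adjusted).

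**Figure D2:**
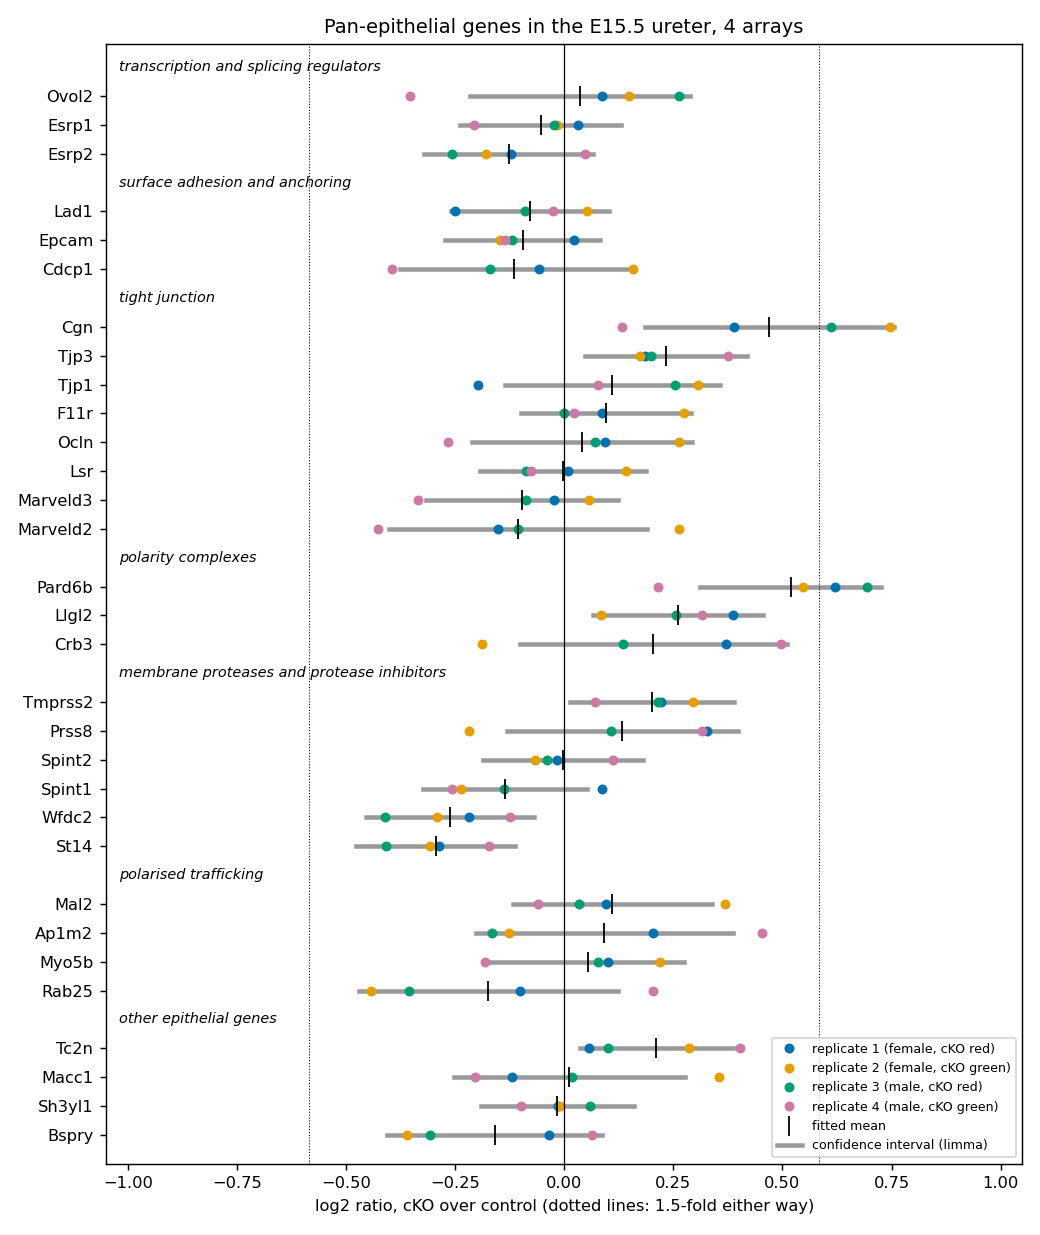
Log2 ratio of cKO over control (x axis) for the 31 genes (y axis), grouped by role, with 1 coloured point per array (n = 4), the fitted mean as a black tick and limma's 95% interval as a grey bar. Dotted lines mark 1.5-fold in either direction. Pard6b and Cgn lie to the right with all 4 arrays above 0, St14 and Wfdc2 to the left with all 4 below 0, and most other genes have arrays on both sides of 0.

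The polarity complex genes had the highest mean ratios as a group: all 3 were above 0, with a median of 0.26, and their summed signal in cKO was 131.0%, 101.9%, 118.0% and 128.5% of control on replicates 1 to 4. That sum is weighted toward Llgl2 and Crb3, with mean log2 levels of 13.66 and 12.18 in control RNAs, against 8.85 for Pard6b. Pard6b encodes the Par6 subunit that links atypical protein kinase C and Cdc42 to the apical Par complex. Its probe, at chr2:167912863-167912922 (build mm9; first 30 bases ttttcactggaaagatctaagcctggaaaa), had log2 levels of 8.91, 8.84, 8.84 and 8.81 in control RNAs and of 9.53, 9.38, 9.53 and 9.03 in cKO RNAs. The lowest cKO level lay above the highest control level. The 4 log2 ratios were 0.62, 0.55, 0.69 and 0.21, with a mean of 0.52 ± 0.21 (SD, n = 4), a 1.43-fold difference that missed the threshold (limma adjusted p = 0.0616). Across the alternatives its mean ran from 0.44 to 0.60 and its adjusted p from 0.000338 to 0.35. In limma it passed the threshold without background subtraction (adjusted p = 0.0470), without the dye term (0.0334) and without the replicate block (0.0494). It also passed with sex as a covariate (0.000338), without replicate 2 (0.0107) and without replicate 4 (0.00163), and missed the threshold under the others. Here and below, the sex covariate was fitted to red-over-green ratios of sex-matched RNAs. It thus held a dye difference between the sexes, not sex itself, and left only the sex difference of the cKO ratio as residual spread. That fit called 1276 of all genes, against 257 in the main fit.

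Llgl2 encodes a Lgl scaffold of the basolateral domain, which opposes the Par complex. Its log2 levels were 13.57, 13.81, 13.71 and 13.53 in control RNAs and 13.95, 13.90, 13.97 and 13.85 in cKO RNAs, again without overlap. Its log2 ratios of 0.39, 0.08, 0.26 and 0.32 gave a mean of 0.26 ± 0.13 (SD, n = 4; limma adjusted p = 0.364, and 0.0456 with sex as a covariate), and its further probe gave 0.25 ± 0.19. Crb3, the small Crumbs protein of mammalian epithelia, differed between arrays: its log2 ratio was 0.37, -0.19, 0.14 and 0.50, so that replicate 2 alone was below 0. Its mean was 0.20 ± 0.30 (adjusted p = 0.934), and 0.38 without replicate 2 (adjusted p = 0.0342). Its further probe averaged 0.29 ± 0.34.

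The tight junction group of 8 genes had a median log2 ratio of 0.07, with 5 genes above 0 and 3 below. Cgn encodes cingulin, the cytoplasmic plaque protein of the tight junction. Its probe, at chr3:94564031-94564090 (mm9; first 30 bases catgatttaaaagaagatattctgcagatc), read 12.06, 11.83, 12.20 and 12.15 in control RNAs and 12.45, 12.58, 12.82 and 12.28 in cKO RNAs on the log2 scale. The groups did not overlap, though the cKO RNA of replicate 4 lay just above the highest control. The log2 ratios were 0.39, 0.75, 0.61 and 0.13 and averaged 0.47 ± 0.27 (1.39-fold, adjusted p = 0.215); without replicate 4 the mean was 0.62 (adjusted p = 0.00198), and with sex as a covariate the adjusted p was 0.00107. Tjp3, which encodes ZO-3, had log2 ratios of 0.19, 0.17, 0.20 and 0.38, a mean of 0.23 ± 0.10 (adjusted p = 0.419), with no overlap between the 4 control levels (13.35 to 13.65) and the 4 cKO levels (13.72 to 13.85).

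The other junction genes had arrays on both sides of 0 or near it. Tjp1, encoding ZO-1, had log2 ratios of -0.20, 0.31, 0.25 and 0.08 and a mean of 0.11 ± 0.23. F11r, which encodes the adhesion molecule JAM-A, averaged 0.10 ± 0.12. Occludin (Ocln) averaged 0.04 ± 0.22 and Lsr, the angulin that recruits tricellulin to corners where 3 cells meet, -0.00 ± 0.11. Tricellulin itself (Marveld2) had the widest spread of the group, with log2 ratios of -0.15, 0.26, -0.10 and -0.43 and a mean of -0.11 ± 0.28, and its relative Marveld3 averaged -0.10 ± 0.17. The limma adjusted p was 1 for each of these 6 genes.

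**Figure D3:**
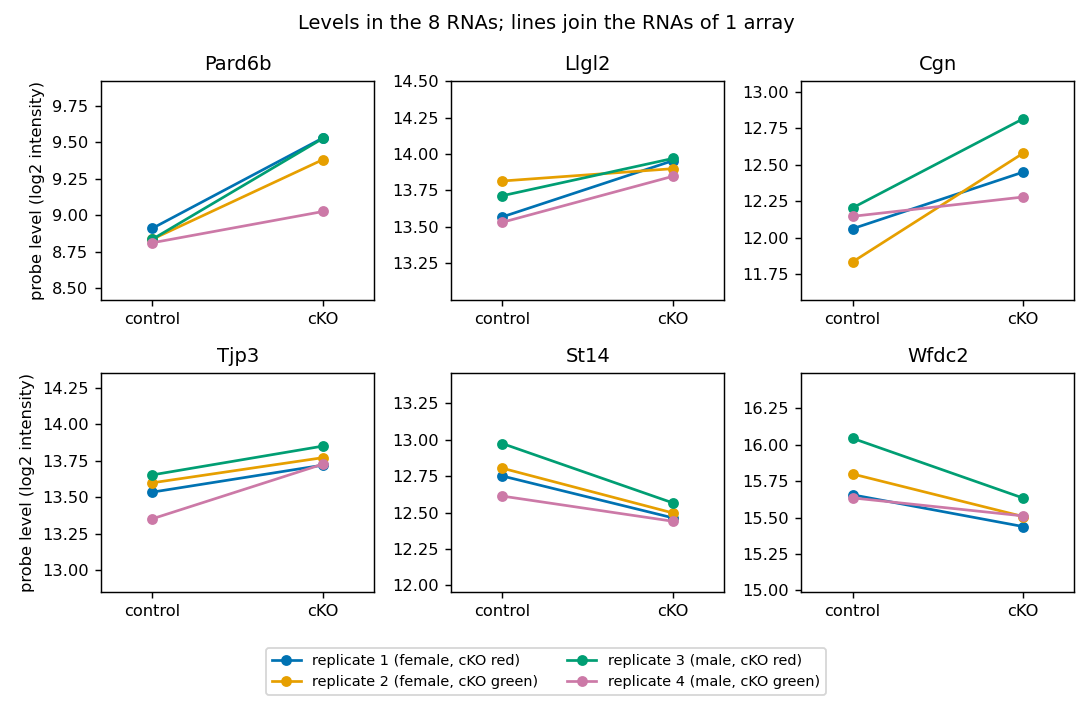
Probe level (log2 intensity, y axis) in control and cKO RNAs (x axis) for the 6 of 31 genes whose 4 control and 4 cKO levels did not overlap, with 1 line per array and an axis span of 1.5 in each panel. All lines of Pard6b, Llgl2, Cgn and Tjp3 slope up and all lines of St14 and Wfdc2 slope down, and replicate 4 has the flattest line for Pard6b, Cgn, St14 and Wfdc2. Levels of different probes are not on a common scale.

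These 6 genes are 19.4% of the list, against 6.39% of all genes tested and 5.53% of genes of like level. They are 4 genes of polarity and junctions with higher levels in cKO RNAs and 2 secreted or membrane proteins of the protease system with lower levels.

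St14 encodes matriptase, a membrane serine protease of epithelia that cleaves and activates other surface proteases. Its log2 levels were 12.75, 12.80, 12.97 and 12.61 in control RNAs and 12.46, 12.50, 12.57 and 12.44 in cKO RNAs. Its ratios were -0.29, -0.31, -0.41 and -0.17, with a mean of -0.29 ± 0.10 (SD, n = 4) and a limma adjusted p of 0.225; without replicate 4 the mean was -0.33 (adjusted p = 0.0353), and with sex as a covariate the adjusted p was 0.0222. Wfdc2, a secreted protein with the whey acidic domains found in protease inhibitors, read 15.66, 15.80, 16.04 and 15.64 in control RNAs and 15.44, 15.51, 15.63 and 15.51 in cKO RNAs. Its ratios were -0.22, -0.29, -0.41 and -0.12, averaging -0.26 ± 0.12 (adjusted p = 0.357, and 0.0442 with sex as a covariate), and its further probe gave -0.29 ± 0.25.

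Partners of matriptase are also in the list. Spint1 and Spint2 encode the Kunitz-type inhibitors HAI-1 and HAI-2, which hold matriptase and prostasin in check. Spint1 had log2 ratios of 0.09, -0.24, -0.14 and -0.26, with a mean of -0.14 ± 0.16 (adjusted p = 0.884), and Spint2 a mean of -0.00 ± 0.08 (adjusted p = 1). Prss8, which encodes prostasin, had ratios of 0.33, -0.22, 0.11 and 0.32 and a mean of 0.13 ± 0.25, and its further probe 0.19 ± 0.20. Tmprss2, another transmembrane serine protease, had ratios of 0.22, 0.29, 0.22 and 0.07, a mean of 0.20 ± 0.09 (adjusted p = 0.554). Whether these genes' ratios differ from each other was not tested. In 19 other serine proteases and inhibitors of epithelia that were tested, 2 were called, both lower: Serpinb5 (maspin), with a log2 ratio of -2.35 ± 0.32 (adjusted p = 0.00177), and Tmprss13, with -1.12 ± 0.14 (adjusted p = 0.00379). The median of that list was -0.12. With 1 array left out, 2 to 7 of the 19 were lower, the most without replicate 4, and 0 or 1 higher.

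Among the genes that set the epithelial state, Esrp1 and Esrp2 encode the splicing regulators that produce epithelial isoforms of many transcripts. Esrp1 had log2 ratios of 0.03, -0.02, -0.02 and -0.21 (mean -0.05 ± 0.10) and Esrp2 of -0.12, -0.18, -0.26 and 0.05 (mean -0.13 ± 0.13). Ovol2, a zinc finger repressor of Zeb1, was above 0 on replicates 1, 2 and 3 (0.09, 0.15 and 0.26) and below 0 on replicate 4 (-0.35), with a mean of 0.04 ± 0.27. Zeb1 (0.02 ± 0.21, adjusted p = 1), Zeb2 (0.16 ± 0.24, 0.989), Snai1 (0.15 ± 0.37, 1) and Snai2 (0.25 ± 0.26, 0.711) did not pass the test; these 4 repressors are named for their E-box, after their values were seen. Their RNA can come from the mesenchyme of the wall as well as from the lining. Of 24 other regulators of epithelia, 2 were called, both lower: Elf5 (-0.74 ± 0.24, adjusted p = 0.0352) and Grhl3, a Grainyhead factor (-0.68 ± 0.22, adjusted p = 0.0469). With 1 array left out, 3 to 6 of the 24 were lower, the most without replicate 2, and 0 to 5 higher, the most without replicate 4.

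Epcam, the adhesion molecule used most widely to mark epithelial cells, had log2 levels of 13.97, 13.94, 14.09 and 13.95 in control RNAs and 14.00, 13.80, 13.97 and 13.82 in cKO RNAs. Its ratios were 0.02, -0.15, -0.12 and -0.14, so replicate 1 stood above the other 3, and its mean was -0.10 ± 0.08 (limma 95% interval -0.27 to 0.08, adjusted p = 1). Its probe begins aaatcagcaaaatatgagaaggctgagata. Lad1, ladinin of the anchoring filaments, averaged -0.08 ± 0.13, and Cdcp1, a transmembrane protein phosphorylated on detachment, -0.12 ± 0.23.

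The 4 genes of polarised trafficking each had arrays on both sides of 0. Rab25, a small GTPase of apical recycling endosomes, read -0.10, -0.44, -0.35 and 0.20 on the log2 ratio scale, with a mean of -0.17 ± 0.29 (adjusted p = 0.997; without replicate 4, -0.33 and 0.0430). Ap1m2, the epithelial subunit of the adaptor that sorts proteins to the basolateral membrane, read 0.20, -0.13, -0.16 and 0.45 (mean 0.09 ± 0.29). Mal2, which takes part in transcytosis to the apical side, averaged 0.11 ± 0.18, and Myo5b, the motor that carries Rab11 endosomes, 0.05 ± 0.17. Of the remaining genes, Tc2n had ratios of 0.06, 0.29, 0.10 and 0.40 and a mean of 0.21 ± 0.16 (limma adjusted p = 0.458). Its probe was the dimmest of the list, with mean log2 levels of 7.63 in control and 7.84 in cKO RNAs. The Tc2n mean was 0.32 with Agilent processed signals and 0.30 from the deposited table. Bspry averaged -0.16 ± 0.21, Macc1 0.01 ± 0.25 and Sh3yl1 -0.02 ± 0.06.

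Further probes existed for 11 of the 31 genes, 12 in all, and 11 of the 12 had the same sign as the brightest probe. The exception was Spint2, whose further probe averaged 0.01 ± 0.12. The brightest probe spanned an exon junction for Epcam, Rab25 and Ap1m2, judged from mm9 coordinates wider than the 60 bases of the probe.

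The family members of these genes in the other lists showed no common direction; they are named for their kinship, after their values were seen. Beside Pard6b, Pard6a averaged -0.06 ± 0.27 and Pard6g -0.32 ± 0.17 (adjusted p = 0.315), with Pard6g below 0 on all 4 arrays. The kinases that bind Par6 averaged -0.07 ± 0.26 (Prkci) and 0.02 ± 0.11 (Prkcz), and Pard3 -0.12 ± 0.15. Beside cingulin, paracingulin (Cgnl1) averaged 0.20 ± 0.15. Of 36 further polarity and tight junction genes tested, 1 was called: Igsf5, which encodes a junctional adhesion molecule of the immunoglobulin family, had log2 ratios of 0.73, 0.68, 0.61 and 0.74 and rose by 0.69 ± 0.06 (adjusted p = 0.0138). The median over the 36 was 0.00, with 17 below 0 and 19 above. With replicate 4 left out, 2 of the 36 were higher and 2 lower.

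The summed signal of the 31 genes in cKO stayed within a few percent of control. It was 101.7%, 102.9%, 97.8% and 99.8% of control on replicates 1 to 4, and the median log2 ratio over the 31 genes was 0.03, 0.08, -0.00 and -0.02. In whole ureter RNA, fewer cells of a type and less RNA per cell cannot be told apart. The 18 epithelial genes that the list leaves out (keratins, claudins, cadherins and desmosome genes) summed to 115.8%, 108.1%, 113.8% and 109.3%. Their median log2 ratio was -0.10, with 11 genes below 0 and 7 above. The sum is weighted toward Krt8 and Krt18, the brightest of these genes. Mean log2 levels of Krt8 and Krt18 were 17.10 and 16.75 in control RNAs and 17.46 and 17.25 in cKO RNAs. Krt18, a keratin of simple epithelia, was the 1 gene called (0.50 ± 0.14, adjusted p = 0.0378, not passed under 6 of 14 alternatives, replicates 1 and 3 left out in turn among them, with values of 0.49 to 0.51). Cldn3 (-0.91 ± 0.43, limma adjusted p = 0.0771), Cdh1 (-0.40 ± 0.26, 0.301) and Dsp (-0.32 ± 0.20, 0.372) were below 0 on all 4 arrays and did not pass. The same holds for Cldn4 (-0.23 ± 0.11, 0.468) and Cldn7 (-0.10 ± 0.06, 0.996). Cdh16 (0.65 ± 0.29, limma adjusted p = 0.0964), Krt8 (0.37 ± 0.19, 0.101) and Pkp2 (0.32 ± 0.13, 0.225) were above 0 on all 4 arrays and did not pass either. All of these uncalled genes are named after their values were seen. With 1 array left out, 1 to 3 of the 18 were lower and 1 to 4 higher (the most lower without replicate 2 and the most higher without replicate 4). The 9 basal urothelium markers summed to 63.2%, 87.9%, 61.9% and 64.4%, and 6 of 9 fell, with a median of -1.19 over the list: Dapl1 (-2.12 ± 0.25), Cdh3 (-1.66 ± 0.42), Krt5 (-1.87 ± 0.42) and Itgb4 (-1.45 ± 0.36) had the smallest p-values (adjusted p = 0.00177, 0.00189, 0.0035 and 0.0105). Superficial urothelium markers summed to between 90.6% and 108.1%, with Krt20 higher (1.92 ± 0.19, adjusted p = 0.0016) and Upk2 lower (-0.54 ± 0.11, adjusted p = 0.0368, not passed under 7 of 14 alternatives).

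**Figure D4:**
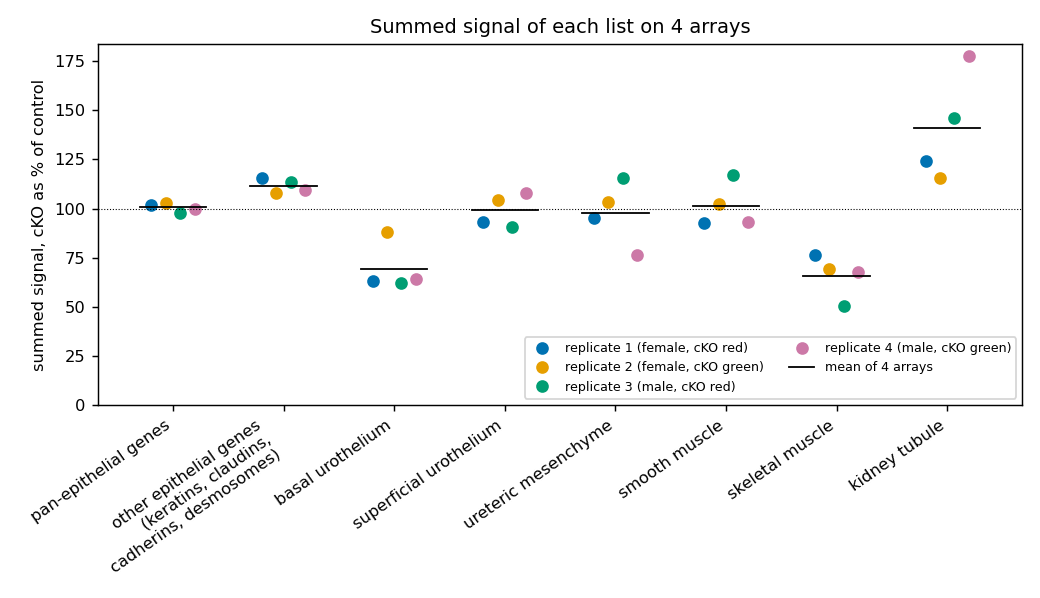
Summed signal of each gene list in the cKO RNA as a percentage of the control RNA on the same array (y axis, from 0), for 8 lists (x axis), with 1 coloured point per array (n = 4) and a black line at their mean. The 31 pan-epithelial genes lie between 97.8% and 102.9% and have the narrowest spread of these lists, the basal urothelium markers between 61.9% and 87.9%, and the skeletal muscle markers between 50.2% and 76.6%. A sum is weighted toward bright probes and tends to vary less over more genes, and the pan-epithelial list is the longest of these.

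Markers of other tissues were measured beside the list. Ureteric mesenchyme markers summed to between 76.3% and 115.8% (0 of 11 called in limma, 1 at an unadjusted p under 0.05), and smooth muscle markers to between 92.9% and 117.1% (0 of 8, and 0 unadjusted). Skeletal muscle markers summed to between 50.2% and 76.6%, with 2 of 8 lower (Myl1, -0.78 ± 0.12, and Ckm, -0.71 ± 0.26; adjusted p = 0.0105 and 0.0246). Kidney tubule markers summed to between 115.3% and 177.4% with 1 of 7 tested higher (Cubn, 2.22 ± 0.28, adjusted p = 0.00177). Of 6 gut and liver genes, Fabp1 (3.09 ± 0.24) and Ttr (1.59 ± 0.44) were higher (adjusted p = 0.000866 and 0.0146). The liver genes Afp (-0.72 ± 0.53, adjusted p = 0.218), Alb (-0.71 ± 0.54, 0.234) and Apoa1 (-0.52 ± 0.49, 0.477) were below 0 on all 4 arrays and did not pass. Vil1 (0.56 ± 0.28, limma adjusted p = 0.0942) was above 0 on all 4 arrays and did not pass either. These uncalled genes are named after their values were seen. With 1 array left out, 1 to 3 of these 6 genes were lower (3 without replicate 3 and without replicate 4) and 2 to 3 higher. Of 7 nephric duct genes, Wnt9b was higher (0.86 ± 0.18, adjusted p = 0.0166). Endothelium, leukocytes, erythroid cells and neurons with glia had 0 genes called in limma, of 6, 6, 5 and 7, and 0, 3, 0 and 1 at an unadjusted p under 0.05. All 7 neuron and glia genes had a mean below 0, and 5 of them were lower without replicate 4; the other 3 of these lists had 0 or 1 gene called with 1 array left out. Under the same settings, 2 to 5 skeletal muscle genes were lower (5 without replicate 1 and without replicate 4), and 1 to 4 kidney tubule genes higher (4 without replicate 2) and 0 to 2 lower (2 without replicate 4). Mesenchyme had 0 or 1 in each direction. The part of these tissues in the ratios of the 31 genes was not tested.

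The 4 arrays did not agree equally well on these genes. Over the 31 genes, the log2 ratios correlated with a Pearson r of 0.77 between replicates 2 and 3 and of 0.75 between replicates 1 and 3, but of -0.07 between replicates 2 and 4; over all genes the same pairs gave 0.62, 0.54 and -0.06. By rank, Spearman's rho between replicates 2 and 4 was -0.03 over the 31 genes and -0.32 over all genes, and between replicates 3 and 4 it was 0.33 and -0.21. These are correlations across genes, which are not independent replicates, and the arrays share their design. Replicates 2 and 4 have the same dye orientation and differ in sex. Crb3, Rab25, Ap1m2 and Prss8 read below 0 on replicate 2 and above 0 on replicate 4, and Marveld2, Cdcp1, Ocln and Ovol2 the other way round. The difference between these 2 arrays had a Spearman rho of -0.48 with the GC content of the probe over the 31 genes (all genes -0.32), and the mean ratio over the 4 arrays had a rho of -0.40 with it (all genes -0.12). Probe GC content was 35% for Cgn, Llgl2 and Tc2n, 40% for Pard6b and Wfdc2 and 53.3% for St14. The part of GC content in these ratios was not tested.

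**Figure D5:**
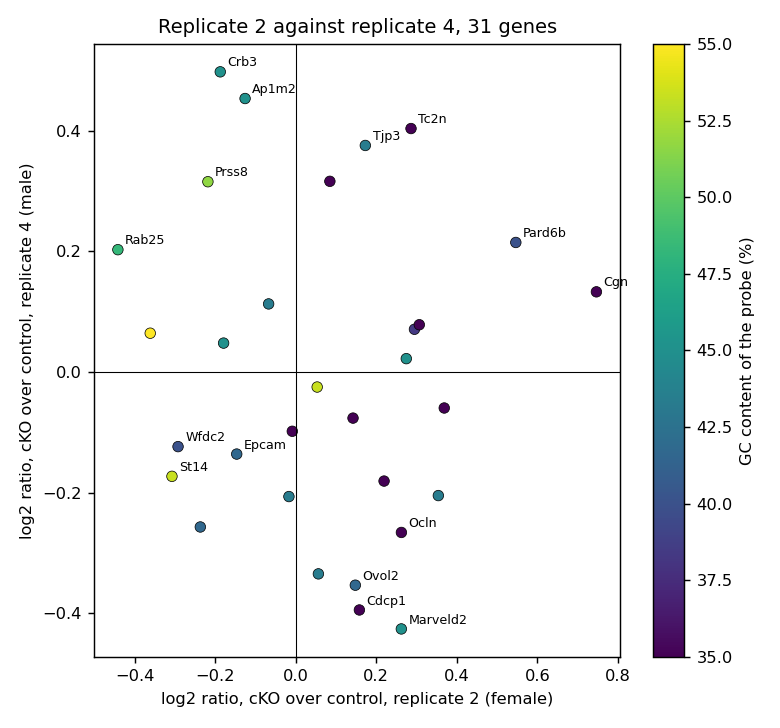
Log2 ratio of cKO over control on replicate 2 (x axis, female) and replicate 4 (y axis, male) for the 31 genes, coloured by the GC content of the probe (%). The points fill all 4 quadrants (Pearson r -0.07); Crb3, Ap1m2, Prss8 and Rab25 lie upper left, and Marveld2, Cdcp1, Ovol2 and Ocln lower right.

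The effect of genotype was also compared between the sexes. None of the 31 genes was called (0 in limma after adjustment and 0 at an unadjusted p under 0.05, against 15 genes of 21456, 0.0699%, adjusted and 202, 0.941%, unadjusted). With 2 arrays per sex, the widest difference in the list, -0.33 male minus female for Cdcp1, had an unadjusted limma p of 0.219. Smaller sex differences could thus go unseen. Lsr had both female ratios above 0 (0.01 and 0.14) and both male ratios below 0 (-0.09 and -0.08), and its male minus female difference of -0.16 did not pass the test (adjusted p = 1).

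The ratios were also set against the E-box CAGGTG. The median log2 ratio was -0.00 over the 15 listed genes with it and 0.02 over the 8 with a window and no E-box, and over all tested genes with a window it was -0.00 (2913 genes) and 0.00 (10122 genes). Pard6b, with 2 E-boxes upstream, and Cgn, with 0 there, had the highest mean ratios of the 31.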

How the data were processed

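Spot intensity, as mean signal and local background of each dye, comes from the deposited scanner output of Agilent Feature Extraction (version 10.7.3.1, per the submitters' processing notes), with flags of other kinds, per the file headers. The labels give 200 ng of total RNA and a single T7 amplification. The value table deposited by the authors holds log2 ratios of cKO over control with a median of 0 and served as an alternative. Depth has no meaning for arrays; 4 arrays limit the precision. Signals were background-corrected (normexp, offset 50, which pulls ratios of dim probes toward 0), normalised by loess within arrays with control spots at weight 0, and the 4 spots of a probe averaged; nonuniform spots were left out and no spot was saturated. The log2 levels are channel values after loess and Aquantile. A gene was tested if, in either genotype, every array had a share of 0.5 or more of its probe's spots flagged well above background. The model was limma (3.58.1, R 4.3.3) on log2 ratios with a dye term, the array being the pair of RNAs; p-values are two-sided and Benjamini-Hochberg adjusted over all 21456 genes, called under 0.05. Errors are SDs over the 4 arrays. The listed genes are all named; of other lists, up to 4 called genes with the smallest p. The genes, lists and tests were chosen with earlier results of these data known. Probe coordinates are of mm9 (NCBI build 37), promoter sequences from RefSeq (GRCm38.p6). All 31 symbols matched the RefSeq table. Alternatives covered background, normalization, filter, dye, sex (as a dye difference between the sexes), pairing, probe choice, variance model, the deposited table and each array left out. Not every tested gene of the other lists is reported here.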

Additional observations from a re-analysis of the deposited data

Results flagged for a closer look

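Among the 31 genes, each with 4 ratios, 2 had an array standing apart by Dixon's criterion at the 95% level, which chance meets in about 1 of 20 groups. Epcam read 0.022 on replicate 1, while the other 3 arrays lay between -0.15 and -0.12. Tjp3 read 0.38 on replicate 4, with the others between 0.17 and 0.20.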

How the results depend on the processing

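The count of 0 called genes among the 31, in both directions, held under 8 of the 14 alternatives. Pard6b was the 1 gene called higher without background subtraction, without the dye term and without the replicate block (1 gene each time). With sex as a covariate 3 were higher and 2 lower, and with 1 array left out 0 to 2 were higher (without replicate 2, Crb3 and Pard6b; without replicate 4, Cgn and Pard6b) and 0 to 2 lower (without replicate 4, Rab25 and St14). Of all genes, 257 were called in the fit as reported, 86 with no filter on dim probes, 461 with no dye term, 1276 with sex as a covariate, 387 with no replicate block, 1 from the deposited table, and 283 (without replicate 3) to 1622 (without replicate 4) with 1 array left out. The median of the 31 genes was 0.070 with median centring (all genes 0.030), where 20 genes were above 0 and 11 below, and -0.046 to 0.033 with 1 array left out. Genes that were not called and lay near 0 changed sign in some settings: with median centring Esrp1 (0.012), Spint2 (0.048), Lsr (0.048), and Sh3yl1 (0.049); from the deposited table Spint2 (0.000075) and Lsr (0.0036); and with all kept probes averaged Spint2 (0.0029). With 1 array left out, the values that crossed 0 ran as follows: Ap1m2 (-0.053 to 0.24), Sh3yl1 (-0.038 to 0.0067), Ovol2 (-0.089 to 0.16), Spint2 (-0.048 to 0.042), Ocln (-0.092 to 0.17), Macc1 (-0.13 to 0.15), Myo5b (-0.046 to 0.15), Lsr (-0.058 to 0.051), Tjp1 (-0.0022 to 0.22), Prss8 (-0.00070 to 0.27), Marveld2 (-0.28 to 0.067), Marveld3 (-0.19 to 0.00059) and Cdcp1 (-0.25 to 0.022). The array is the pair of RNAs, and only Pard6b changed its call among the 31 without that block. Of the 20 other genes called in the lists, all 20 and Trp63 lost their call with the deposited table, and 11 with no filter on dim probes. The cause of these changes was not tested.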
